A study of Mus musculus with 2 samples.

Results

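The genes described here are 8 genes of MHC class I antigen presentation, out of 25778 genes in the count table of the mature mouse retina. They are the heavy chains H2-D1, H2-K1 and H2-T23, the light chain B2m, the peptide transporter subunits Tap1 and Tap2, the loading chaperone Tapbp and the immunoproteasome subunit Psmb8. They were listed by name and read by library and by deposited cell type. H2-D1 was chosen by its measured UMI levels, which were lower in every cell type of the knockout library, so its direction is a description and carries no test. The other 7 are partners of H2-D1 in the same pathway.

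The study asked whether the RNA-binding protein Ptbp1 shapes retinal gene expression and cell fate, and used droplet single-cell RNA sequencing of dissociated retina at P30 (30 days of age). The control, Ptbp1-Ctrl, carried Chx10-Cre, and the mutant, Ptbp1-KO, carried Chx10-Cre;Ptbp1lox/lox, in which loxP sites flank the promoter and the first exon of Ptbp1. Both genotypes carried Chx10-Cre, which produces a Cre-GFP fusion in retinal progenitors, so the allele is lost in the neurons and Müller glia made by these progenitors and in no resident immune or vascular cell that arises elsewhere. There was 1 library per genotype. Genotype, animal, dissociation and sequencing run therefore cannot be told apart, and no p-value is given for any difference between genotypes. The strain, and with it the MHC haplotype, of the mice is not given in the sources used here.

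The control library held 16421 cells and 32758836 UMIs (unique molecular identifiers, 1 per captured RNA molecule), and the knockout library held 14522 cells and 35328593 UMIs. Median depth was 1442 UMIs per cell in the control and 1740 in the knockout. The libraries shared 63 cell barcodes. Ptbp1 itself stood at 25.2 counts per 1000000 UMIs (CPM) in the control and 0.396 CPM in the knockout. The study's methods give the mice as female. Both libraries held few Xist UMIs (5 and 6) and many UMIs of the Y-linked gene Uty (6164 and 7085), which does not match that sex in either library. The 5 types with enough UMIs for comparison were rods and cones, bipolar (BC) and amacrine (AC) interneurons, and Müller glia (MG). Each had the highest summed level of its own marker list. Ganglion cells (RGC, 124 control and 97 knockout cells) and horizontal cells (HC, 17 and 7 cells) were read for level only.

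MHC class I molecules display peptides from inside the cell to CD8+ T cells and natural killer cells. The proteasome, or its immunoproteasome form under interferon, cuts proteins into peptides, the Tap1-Tap2 transporter carries the peptides into the endoplasmic reticulum, and tapasin (Tapbp) bridges the transporter to a heavy chain paired with beta-2-microglobulin (B2m). Neurons are known for low class I levels, and glia and vascular cells raise class I genes in response to interferon. Heavy chain genes differ in sequence between inbred mouse strains.

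The upstream sequences of H2-D1 and H2-K1 are shown because these heavy chains differed in their pattern over cell types while most of their upstream letters were identical. RefSeq promoter windows (GRCm38.p6) matched 7 of the 8 genes, Tap2 having no entry. In the 250 bases before the annotated start, 170 of 190 aligned bases were identical between H2-D1 and H2-K1 (89.5%), against 44.6% to 60.8% for every other pair of the 7. In each sequence below, given 5′ to 3′ on the gene's own strand, capitals mark matches on either strand to a core of the kappa-B motif (GGANTCC), an ISRE-like motif (AANNGAAA), a CCAAT box (CCAAT) or a TATA box (TATAAA).
H2-D1, stretch at chr17:35262925-35262951, plus strand: GGATTCCccatctcctcagTTTCACTT
H2-K1, stretch at chr17:34000430-34000456, minus strand: GGATTCCccatctccacagTTTCACTT
H2-K1, window at chr17:34000348-34000597, minus strand: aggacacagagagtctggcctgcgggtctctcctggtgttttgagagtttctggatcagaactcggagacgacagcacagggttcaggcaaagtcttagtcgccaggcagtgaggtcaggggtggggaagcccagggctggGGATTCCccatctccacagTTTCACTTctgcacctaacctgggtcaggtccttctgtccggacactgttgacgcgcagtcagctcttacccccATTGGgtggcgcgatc
B2m, window at chr2:122147437-122147685, plus strand: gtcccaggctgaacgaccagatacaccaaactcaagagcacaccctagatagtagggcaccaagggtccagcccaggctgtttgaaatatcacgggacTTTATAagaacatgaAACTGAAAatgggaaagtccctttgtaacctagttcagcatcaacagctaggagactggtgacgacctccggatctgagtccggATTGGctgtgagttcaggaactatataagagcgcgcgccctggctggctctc
The stretch from the kappa-B match to the ISRE-like match was 27 bases long in both heavy chains and differed at 1 base, T16A, counted from 1 at its 5′ end with H2-D1 first. The stretch began 169 bases before the annotated start in H2-D1 and 109 bases before it in H2-K1, whose start is annotated farther upstream. The kappa-B letters were present in 2359 of 32851 RefSeq windows (7.18%), the ISRE-like letters in 21.3%, CCAAT in 33.8% and TATAAA in 12.4%. Of the 7 genes, 2 held the kappa-B letters (H2-D1 and H2-K1), 4 the ISRE-like letters and 6 CCAAT. A match is a description of the letters and was not tested as a binding site. In the GENCODE annotation of the same build the whole H2-D1 window lies inside an exon of a longer H2-D1 transcript, so only the short stretch is printed.

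H2-D1, a classical heavy chain, lies on chromosome 17 at 35262730 to 35267499 on the plus strand (mm10). It was the most widely detected of the 8 genes, with 5873 UMIs in 4846 cells, of which 47.9% were in rods. In rods the level was 143 CPM (95% interval 137 to 150) in the control and 65.5 (61.4 to 69.8) in the knockout. In cones it was 151 CPM (134 to 171) and 96.8 (81.3 to 114). These intervals, here and below, are exact Poisson intervals and cover counting error only, not the spread between animals. The control interval lay wholly above the knockout interval in rods and cones, and the same was true of the other 3 types.

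Among inner retinal types, H2-D1 stood at 65.2 CPM (60.2 to 70.4) in control BC and 39.6 (35.8 to 43.6) in knockout BC. In AC the levels were 138 CPM (122 to 155) and 81.9 (73.1 to 91.5). In MG they were 99.1 CPM (91.2 to 107) and 66.1 (59.2 to 73.5). The highest levels were in RGC, at 282 CPM (215 to 363) from 60 UMIs in the control and 202 (142 to 278) from 37 UMIs in the knockout, and these intervals overlapped. HC gave only 8 control UMIs and 1 knockout UMI.

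**Figure D1:**
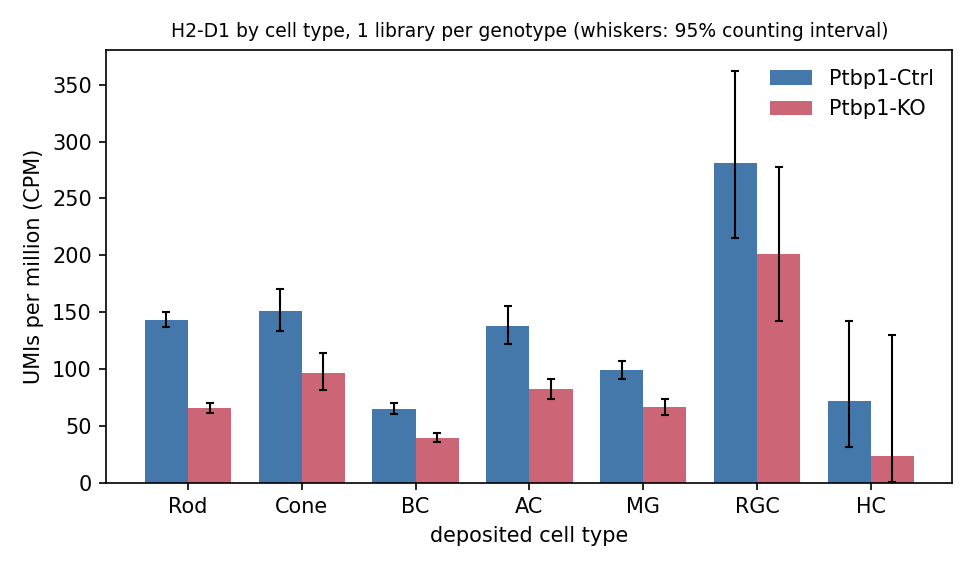
H2-D1 level in CPM (vertical axis) in each deposited cell type (horizontal axis), in the Ptbp1-Ctrl and Ptbp1-KO libraries. Bars are the level of 1 library and whiskers its 95% Poisson interval; the knockout bar is lower in all 7 types, and the intervals are apart in rods, cones, BC, AC and MG.

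As log2 ratios of knockout over control, H2-D1 was -1.13 in rods (-1.24 to -1.02), -0.64 in cones (-0.95 to -0.34), -0.72 in BC (-0.90 to -0.54), -0.75 in AC (-0.99 to -0.51) and -0.58 in MG (-0.78 to -0.39). Rods thus showed the lowest ratio, and their interval did not reach that of any other type. Stratified over the 5 types, the ratio was -0.89 (-0.97 to -0.82), a level 0.538 times that of the control.

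A gene was called lower or higher where its log2 ratio passed 0.5 and it had at least 50 UMIs over both libraries. By this rule 1 of the 8 genes, H2-D1, was lower in each of the 5 types, where 0.222% of all genes tested (17 of 7651) were. Because H2-D1 was picked for this pattern, nothing is read from that count. The other 16 genes included the ribosomal protein gene Rpl29 and Cox7b, a subunit of cytochrome oxidase, and none belonged to the class I pathway lists. In its least negative type H2-D1 stood at -0.58, and only Kcnj14 at -0.57 and Mid1 at -0.51 were nearer to the threshold from inside. Rnf121, at -0.50, and Cerkl, at -0.49, were just outside.

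The summed level of rod markers within each of the other 4 types was also lower in the knockout. Within rods themselves it was 44780 CPM in the control and 40380 in the knockout, 5 of the 7 markers being lower. The summed level of 7 rod markers within MG was 7061 CPM in the control and 5483 in the knockout, all 7 being lower, and within BC it was 6953 and 5878, again with all 7 lower. With the library-wide profile subtracted in proportion to rod markers, the H2-D1 log2 ratio was -0.45 in MG, short of the threshold, and it was past it at -0.52 in BC, -0.71 in AC and -0.52 in cones. When only the largest cluster of a type was read, it was -0.49 in MG and -0.46 in AC.

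Cell types of the retina hold distinct clusters, and H2-D1 was lower in the knockout in 21 of 21 deposited clusters, with an interval below 0 in 18. The log2 ratio ran from -1.66 in BC cluster 20 to -0.07 in BC cluster 18, with a median of -0.86. The 4 rod clusters spanned a range of levels, from 89.0 CPM in the control and 38.9 in the knockout in the largest, cluster 0, to 227 and 125 in cluster 3. The 3 MG clusters had ratios of -0.49 (cluster 4), -1.39 (cluster 16) and -0.93 (cluster 22). The intervals that reached 0 were those of BC clusters 12, 18 and 21.

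**Figure D2:**
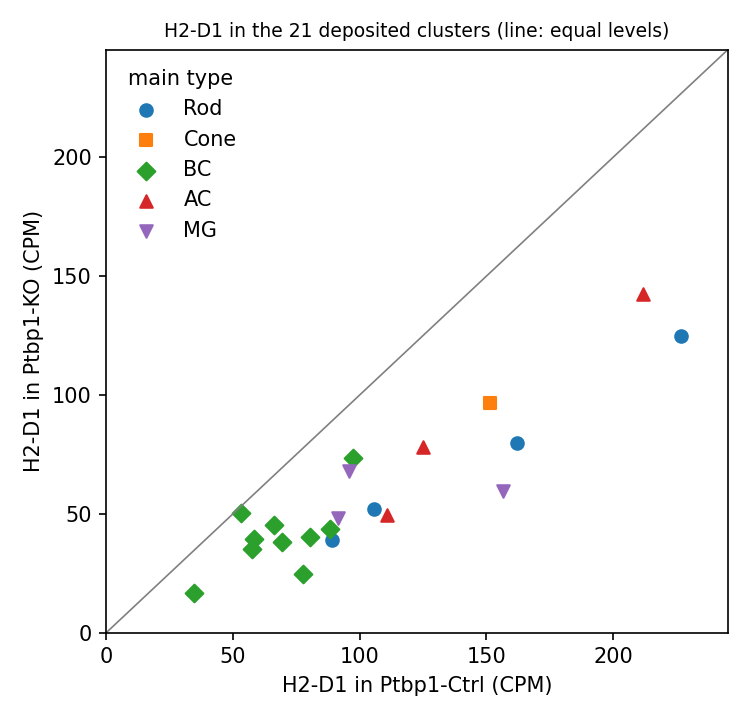
H2-D1 level in CPM in the control library (horizontal axis) against the knockout library (vertical axis) for the 21 deposited clusters, 1 point per cluster, shaped and coloured by its main cell type. Every point lies below the line of equal levels, BC cluster 18 (53.0 and 50.4) closest to it by ratio.

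The share of cells with an H2-D1 UMI depends on depth, so it is given raw and with each cell thinned to 1000 UMIs. In rods it was 15.5% in the control and 8.87% in the knockout raw, and 13.7% (12.8 to 14.6, exact binomial interval) and 6.19% (5.60 to 6.82) thinned. In MG it was 27.0% and 21.4% raw, and 9.98% (8.58 to 11.5) and 6.48% (5.14 to 8.04) thinned. Shallower cells were left out of the thinned shares, which removed 4155 control and 3126 knockout rods but only 57 and 11 MG. The lower knockout level was therefore also a lower share of cells in both types, at equal depth. No retinal type here lacked the gene and could serve as its background.

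The order of the types differed between libraries. In the control, H2-D1 levels in cones, rods and AC had overlapping intervals between neighbours in the order, and MG and then BC were lower with intervals apart. In the knockout, cones, AC, MG and rods formed an order in which no neighbours were apart, with BC below them. MG were at 0.692 times the rod level in the control and 1.01 times in the knockout.

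H2-K1, the other classical heavy chain measured, lies at 33996017 to 34000347 on the minus strand of chromosome 17. Of its 1095 UMIs 61.2% were in MG. The level was highest in the few HC, at 135 CPM (75.8 to 223) from 15 UMIs in the control and 93.3 (25.4 to 239) from 4 UMIs in the knockout. In RGC it was 51.6 CPM (25.8 to 92.4) and 27.2 (8.84 to 63.6). In MG its level was 52.0 CPM (46.3 to 58.1) in the control and 71.4 (64.2 to 79.1) in the knockout, a log2 ratio of 0.46 (0.23 to 0.68). This was below the 0.5 threshold, but the intervals were apart and the direction was the opposite of that of H2-D1 in the same cells. The ratio was positive in each of the 3 MG clusters, at 0.41, 0.68 and 0.96, and the interval excluded 0 in cluster 4 alone.

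In AC, H2-K1 was lower in the knockout, at 36.3 CPM (28.3 to 45.8) against 17.4 (13.5 to 22.1), a log2 ratio of -1.06 (-1.57 to -0.56). Most of this came from AC of cluster 6, where the level was 41.1 CPM in the control and 14.04 in the knockout. In AC of cluster 14 it was 41.8 and 25.8 CPM, and in AC of cluster 15 it was 18.4 and 15.5, with intervals of the ratio that included 0 in both. The summed level of 6 MG markers within AC was 639 CPM in the control and 442 in the knockout, 5 of the 6 being lower. That of 6 RGC markers was 162 and 123 CPM, 4 of the 6 being lower. Their part in the result was not tested.

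H2-K1 was scarce in photoreceptors and BC. Rods held 30 control and 21 knockout UMIs, or 2.30 and 1.45 CPM, a log2 ratio of -0.67 (-1.55 to 0.19). BC were at 9.09 and 7.52 CPM, with a ratio of -0.27 (-0.73 to 0.18). In the largest BC cluster, with 4 and 12 UMIs, the ratio was 1.31 (-0.41 to 3.40). Cones had 12 and 23 UMIs, too few for the threshold of 50, and their ratio was 1.23 (0.16 to 2.37). Over the 5 types the stratified ratio was 0.12 (-0.05 to 0.29), which joins opposite directions in MG and AC.

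The 2 classical heavy chains thus divided the retina differently. MG over rods, H2-K1 was 22.6-fold higher in the control and 49.3-fold higher in the knockout, whereas H2-D1 was at 0.692 and 1.01 times. Transcript ends of class I genes resemble each other, so 90-base windows from the last 500 bases of each annotated transcript were searched in all other genes. Of the windows, 8.93% of those of H2-D1 and 2.31% of those of H2-K1 also occurred in another gene. For H2-T23 the share was 4.4%, and it was 0 for B2m, Tap1, Tap2, Tapbp and Psmb8. The genes that shared windows of H2-D1 included H2-Q1 and H2-T23. Those that shared windows of H2-K1 included H2-Q10 and H2-D1 itself. Reads from such stretches cannot be assigned to 1 gene, and their part in the ratios was not tested.

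H2-T23 encodes the heavy chain of Qa-1, a non-classical class I molecule that presents a leader peptide to natural killer receptors. It lies on chromosome 17 at 36029773 to 36032855, minus strand. It was sparse, with 168 UMIs in all. In MG it had 20 UMIs in the control and 34 in the knockout, that is 3.39 CPM (2.07 to 5.23) and 6.69 (4.63 to 9.34), a log2 ratio of 0.98 (0.14 to 1.86). In rods it had 22 and 33 UMIs and a ratio of 0.43 (-0.39 to 1.28). Over the alternative settings the MG ratio ran from 0.60 to 2.24 and the rod ratio from 0.06 to 0.51. AC held 2 and 16 UMIs.

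The whole of H2-T23 is overlapped by A930015D03Rik, an antisense transcript on the plus strand at 35994453 to 36038435, and its level differed far more. In rods A930015D03Rik had 137 control and 1089 knockout UMIs, or 10.5 CPM (8.82 to 12.4) and 75.1 (70.7 to 79.7). The log2 ratio was 2.84 in rods, 2.49 in cones, 2.70 in BC, 2.70 in AC and 2.66 in MG, and 2.77 (2.57 to 2.97) over the 5 types. It was thus at a similar ratio in all 5 types. The 10x 3′ assay keeps strand, but the counting settings are not given in the sources used here, so H2-T23 is reported as uncertain. Its interval in rods lay below that of A930015D03Rik (2.58 to 3.11). H2-T24, another non-classical heavy chain gene, at 36005695 to 36020560 within the same antisense transcript, was named after its values were seen. It had 10 control and 77 knockout UMIs in rods, a log2 ratio of 2.79 (1.84 to 3.91).

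B2m, the light chain that every classical heavy chain needs to reach the cell surface, lies on chromosome 2 at 122147686 to 122153083. It was the gene of the 8, after Psmb8, with the largest part of its UMIs in MG, 83.1% of 515. In MG it stood at 36.6 CPM (31.9 to 41.8) in the control and 41.7 (36.3 to 47.7) in the knockout, a log2 ratio of 0.19 (-0.09 to 0.47), which was not distinguishable from 0 at this depth. In control rods it had 7 UMIs, or 0.537 CPM (0.216 to 1.11), and in knockout rods 16 UMIs, or 1.10 CPM (0.631 to 1.79). MG over rods, B2m was 68.1-fold higher in the control and 37.8-fold higher in the knockout. The gap between MG and each of the other 4 main types was larger than the counting intervals in both libraries.

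The share of MG with a B2m UMI was 10.7% in the control and 14.4% in the knockout. With MG thinned to 1000 UMIs it was 3.85% (2.98 to 4.89) and 4.43% (3.33 to 5.77). In rods, taken as the background, the thinned shares were 0.0508% and 0.113%. Median depth was 3333 and 4178 UMIs in MG and 1088 and 1288 in rods. The B2m share in MG was above that of rods in both libraries, and between genotypes the thinned intervals overlapped. B2m shares all of its span with Patl2 on the other strand, which had 1 and 3 UMIs in MG.

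Tap1 and Tap2 encode the subunits of the peptide transporter. They lie close together on chromosome 17, at 34187553 to 34197225 and 34203527 to 34216321, with Psmb8 between them. Tap2 was read mainly in MG, where it had 69.9% of its 382 UMIs. Its MG level was 20.3 CPM (16.9 to 24.3) in the control and 28.9 (24.4 to 34.0) in the knockout, a log2 ratio of 0.51 (0.15 to 0.87). The intervals were apart by a narrow margin. In BC, the only other type with over 50 UMIs, it was 4.50 and 4.49 CPM. Tap1 had 18 and 26 UMIs in MG, or 3.05 and 5.11 CPM, a ratio of 0.75 whose interval (-0.18 to 1.70) included 0. Neither subunit passed 10 UMIs in the rods of either library.

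Tapbp, the tapasin gene, at 33915899 to 33929292 on chromosome 17, was spread over all types and was, with H2-D1, the only one of the 8 with 50 UMIs in each of the 5. Its level in rods was 34.3 CPM (31.2 to 37.6) in the control and 33.1 (30.2 to 36.2) in the knockout, a log2 ratio of -0.050 (-0.24 to 0.14). In MG it was 42.3 CPM (37.2 to 47.9) and 52.3 (46.2 to 59.0), a ratio of 0.31 (0.05 to 0.56). The ratio in cones was 0.48 (0.0042 to 0.96), and those in BC (-0.051) and AC (-0.39) had intervals that included 0. Tapbp overlaps Zbtb22 on its own strand, which had 65 and 42 UMIs in MG, and an antisense transcript, Gm19412, with 38 and 33.

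Psmb8, an interferon-inducible catalytic subunit of the immunoproteasome at 34197721 to 34201454 on chromosome 17, had 85.3% of its 231 UMIs in MG. There its level was 16.4 CPM (13.3 to 20.04) in the control and 19.7 (16.0 to 23.9) in the knockout, a log2 ratio of 0.26 (-0.16 to 0.68). AC gave no Psmb8 UMI in either library. A count of 0 there allows up to 1.53 CPM in the control and 0.778 in the knockout, by the level of 3 UMIs. Psmb9, its partner subunit, had 64 and 60 UMIs in MG and 87.3% of its UMIs there.

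**Figure D3:**
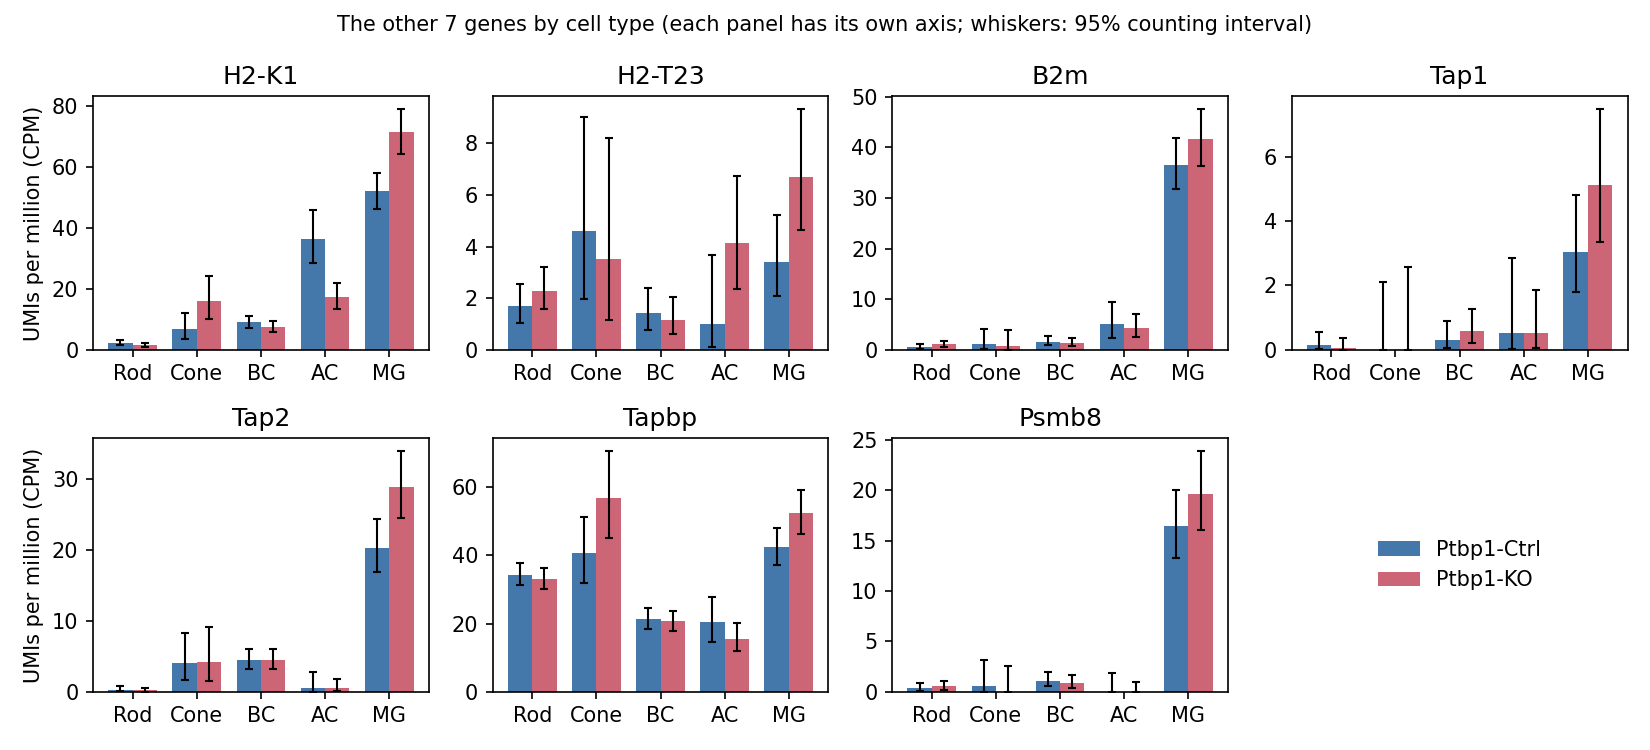
Level in CPM (vertical axes, each panel with its own scale) of the 7 genes other than H2-D1 in the 5 main cell types (horizontal axes), control and knockout libraries. Whiskers are 95% Poisson intervals; B2m, Tap1, Tap2, Psmb8 and H2-K1 are highest in MG, whereas Tapbp is spread over all types.

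Counted together, the number of the 8 genes with 50 UMIs was 4 in rods, 2 in cones, 4 in BC, 3 in AC and 7 in MG. In rods 2 were lower (H2-D1 and H2-K1) and 0 higher, where 1.88% of all genes were lower and 11.5% higher. The H2-K1 ratio in rods rested on 51 UMIs, and its interval (-1.55 to 0.19) included 0. In AC the same 2 were lower and 0 higher, against 4.36% and 5.5% of all genes. In cones and in BC 1 of the genes was lower, H2-D1, against 4.96% and 3.0%, and 0 were higher, against 6.51% and 4.99%. H2-D1 was chosen for being lower in every type, so its part in these counts was set by that choice.

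In MG 1 gene was lower (H2-D1) and 2 were higher (H2-T23 and Tap2), where 4.6% of all genes were lower and 6.36% higher. The Tap2 ratio lay at the threshold and was under it in 6 of 10 alternative settings, between 0.33 and 0.63 over all of them. The median log2 ratio of the 7 genes read in MG was 0.31, beside -0.0023 over all genes. The ratio was positive for 6 of the 7, H2-D1 being the exception. In AC the median of the 3 genes read was -0.75, beside -0.0008 for all genes. These medians hold only genes that passed the count minimum, and H2-D1 was chosen for its direction.

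**Figure D4:**
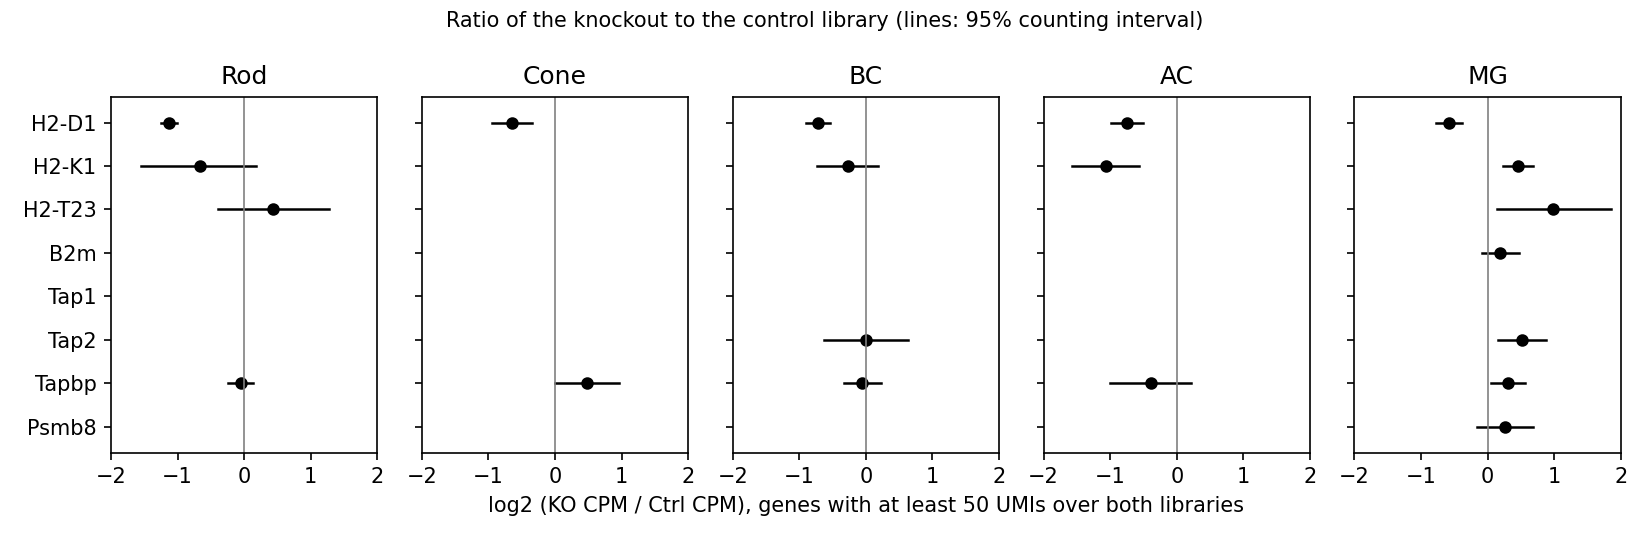
Log2 ratio of knockout over control (horizontal axes) for each gene (vertical axis) in each cell type (panels), shown where the gene had at least 50 UMIs over both libraries. Points are ratios of 1 library to 1 library and lines are 95% counting intervals; H2-D1 is left of 0 in every panel, and H2-K1 is left of 0 in AC and right of 0 in MG.

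Over the 10 sums of 5 types and 2 libraries, log2 levels of B2m went with those of Tap1 (Pearson r = 0.96), Psmb8 (0.87) and H2-K1 (0.84). Those of H2-D1 had r between -0.26 and 0.25 with each of the other 7. The 10 sums share 2 libraries and differ in depth, and these values are descriptions. Among 7651 genes with 50 UMIs in each type, those most like H2-D1 were Tomm22 (0.90), Borcs8 (0.85), Dnajb11 (0.84), Fbxw5 (0.83) and Gpcpd1 (0.83). Those most like B2m were Ogfrl1, Sdcbp, Arf4, Tsc22d4 and Glud1, each at 0.99.

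Genes around H2-D1 on chromosome 17 were read next. Within 1 Mb of its start, 202 genes are annotated, 121 were in the table and 36 had 50 UMIs in each type. None of the 36 was lower by the threshold in each of the 5 types, where 0.222% of all genes were. One neighbour, A930015D03Rik at a distance of 732 kb, was higher in each, where 0.144% of all genes were. The median stratified log2 ratio of the 36 was 0.0157. The lowest were the non-coding 1110038B12Rik at -0.42, the RNA-processing gene Lsm2 at -0.27 and Gnl1 at -0.23. The highest after A930015D03Rik were Prrt1 at 0.29 and Gpsm3 at 0.25. H2-D1, at -0.89, was lower than each of the 36. It was chosen for being lower and the neighbours were not, so nothing is read from this rank.

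**Figure D5:**
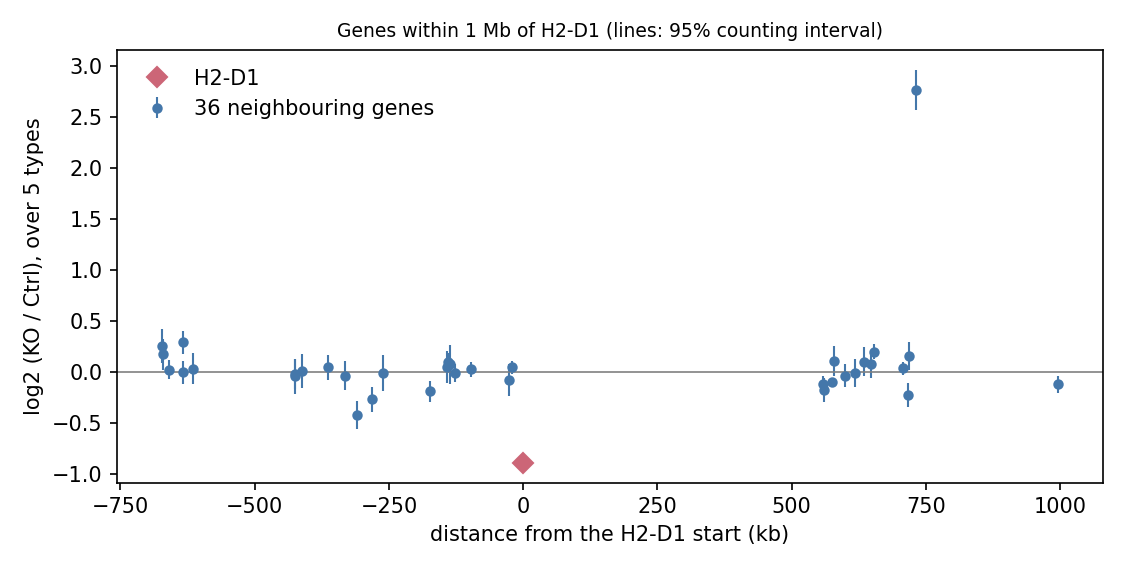
Log2 ratio of knockout over control stratified over 5 cell types (vertical axis) against distance from the H2-D1 start (horizontal axis, kb) for the 36 genes within 1 Mb that had 50 UMIs in each type, and for H2-D1. Lines are 95% counting intervals. Apart from A930015D03Rik at 2.77, the neighbours lie between -0.42 and 0.29, above H2-D1 at -0.89, which was chosen for being lower.

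The wider pathway was read through gene lists. Of 17 other class I heavy chain and class I-like genes, 15 were in the table and 5 had 50 UMIs in MG. There Fcgrt, the neonatal Fc receptor, was lower, at 18.1 CPM in the control and 10.4 in the knockout, a log2 ratio of -0.80 (-1.30 to -0.31). Thus 1 of the 5 was lower and 0 were higher, where 4.6% of all genes were lower and 6.36% higher. Cd1d1, which presents lipids, was at 0.41 (0.06 to 0.75) and Hfe, an iron regulator, at -0.20. In rods 2 of the list were read and both were higher, where 11.5% of all genes were. These were H2-T24, with 10 control and 77 knockout UMIs, and Hfe, with 31 and 103 UMIs and a ratio of 1.58 (0.99 to 2.21). Both passed the minimum of 50 only with the UMIs of the library where they were higher. Nothing is therefore read from this count.

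Of 10 peptide loading and trimming genes, all 10 were read in MG and BC. None passed the threshold in MG, in rods or in AC, 1 was higher in BC (Tapbpl, the tapasin-related TAPBPR, 0.81) and 1 was lower in cones (Pdia3, named with Tapbpl after the values were seen). Of all genes, 4.99% were higher in BC and 4.96% were lower in cones. The chaperones calreticulin (Calr) and calnexin (Canx) were at -0.035 and 0.18 in MG and -0.24 and -0.19 in rods. Of the 6 immunoproteasome and activator genes, 6 were read in MG with 0 lower and 0 higher, and of the 7 constitutive beta subunits all 7 were read in every type with 0 lower and 0 higher. The activator Psme1 was higher in AC alone, 1 of 5 read there, where 5.5% of all genes were higher. Over all genes the share lower ran from 1.88% in rods to 4.96% in cones. The share higher ran from 4.99% in BC to 11.5% in rods. These lists are short, so nothing is read from their counts.

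Among 23 regulators of class I genes, 21 were read in MG, where 0 were lower, against 4.6% of all genes. Irf9, a part of interferon signalling, was higher there, with a log2 ratio of 0.66 (0.22 to 1.11). In rods 20 were read, with 0 lower and 3 higher, namely Nlrc5, the class I transactivator, Irf9 and Nfkb1. In rods 11.5% of all genes were higher, so this share of the list was near that of all genes. In BC none of 21 passed either way. Of 30 interferon response genes, 28 were in the table and 21 were read in MG. There 1 was lower, Ifit3, at 31.7 CPM in the control and 14.9 in the knockout (-1.08, -1.49 to -0.69). The 4 that were higher were Ifi27 (0.72), Ifitm3 (0.54), Gbp3 and Samd9l. The median of the 21 was 0.22. Over all genes in MG 4.6% were lower and 6.36% higher, and the intervals of Gbp3 and Samd9l included 0. In the neurons at most 3 of this list were read in any type.

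MHC class II genes, which mark professional antigen-presenting cells, were close to absent. H2-DMa was the only one of 8 in the table to be read in MG, at -0.26 (-0.86 to 0.32), and Cd74 and H2-Ab1 had 0 UMIs in control MG and 1 and 3 in knockout MG. Of 12 microglial markers, 4 were higher and 5 lower in knockout MG, with a summed level of 72.1 CPM in the control and 78.1 in the knockout, and C1qb, Tmem119 and Tyrobp were at 0 in both. Of the 9 endothelial markers, Flt1 (876 and 812 CPM) and Kdr (643 and 709 CPM) made up nearly all of the summed 1525 and 1529 CPM in MG, and the others were each at or below 2.36 CPM, with Tie1 at 0. All 5 astrocyte markers were higher in knockout MG, with sums of 39.6 and 54.1 CPM, of which Aldh1l1 held 29.3 and 34.4. Of 5 markers of the retinal pigment epithelium, 4 were higher, with sums of 14.4 and 21.8 CPM and Rpe65 at 0.339 and 0.590. The part of these cells in the MG values was not tested.

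Single cells held few of these UMIs. The richest was a knockout MG of cluster 4 with 26 UMIs of the 8 genes among 5181, including 10 of H2-D1, 9 of H2-K1 and 7 of B2m. The second was a knockout cell deposited as BC with 18, of which 14 were H2-D1. It carried 128 microglial-marker UMIs against 17 of the BC list, and so went against its label. Without cells that held 2 or more UMIs of such other-cell markers, the H2-D1 ratio in BC was -0.78. Within BC, 5 erythrocyte markers summed to 8.27 CPM in the control and 298.5 in the knockout, all 5 being higher. The 12 microglial markers summed to 44.9 and 58.1 CPM there, 8 being higher and 4 lower. The part of either list in the BC values was not tested separately.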

How the data were processed

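Retinas at P30 were dissociated with papain and captured with 10x Genomics 3′ version 3.1 chemistry. Per the labels, the authors used Cell Ranger 7.0.1, Seurat 4 and mm10, and deposited raw UMI counts per gene and cell with a percent of mitochondrial UMIs, library, cluster and cell type for each cell. The 2 remaining columns of the cell table were not used. UMIs were summed per library and deposited type, divided by the type's total and given per 1000000 UMIs (CPM) with exact Poisson 95% intervals. Ratios have exact conditional binomial intervals and were stratified over 5 types by the Mantel-Haenszel method. With 1 library per genotype no test was made. Calls needed a log2 ratio of at least 0.5 and 50 UMIs over both libraries. Shares have exact binomial (Clopper-Pearson) intervals. Intervals and floors (3 UMIs) cover counting error only.

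Scrublet in scanpy 1.11.5 called 0 doublets of 30943 cells, so it did not work here and its scores served only as a ranking. Python 3.11.15, numpy 2.4.6, scipy 1.17.1 and edgeR 4.0.16 were used, and ratios were tested on simulated data. Gene positions are GENCODE M21 and upstream windows RefSeq. The members and lists were chosen with earlier results of these data known. Within a list at most the 4 genes with most UMIs were to be named, and others are said to be named after their values were seen, which also holds for Tapbpl, Ifit3, Gbp3, Samd9l, Irf9, Nlrc5, Nfkb1, Psmb9, Kcnj14, Mid1, Rnf121, Cerkl, Rpl29 and Cox7b. One regulator of class I genes is not reported here.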

Additional observations from a re-analysis of the deposited data

Results flagged for a closer look

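The ratio of H2-K1 lay on opposite sides of 0 in different cell types, with both counting intervals excluding 0. The log2 ratio of knockout over control was 0.46 in MG and -1.06 in AC, a difference of 1.52. Between cones and AC the difference was 2.29, but the cone ratio rested on 35 UMIs. Each type was read in 1 library per genotype, so the difference between types was not tested against the spread between animals.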

How the results depend on the processing

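The alternatives were other scalings (TMM and median of ratios), cells thinned to 1000 UMIs, the mean of per-cell CPM, removal of the 5% of cells with the highest doublet scores, removal of cells with other-cell markers, subtraction of free RNA (rods left out), the largest cluster of each type, and a total without mitochondrial and rod genes. Of 196 per-type values, 184 stayed inside the counting interval of the value reported. The sign changed in 4 values, of which only Tapbp in MG had an interval that excluded 0 as reported. The others were H2-K1 in BC (1.31 in the largest cluster), Tapbp in BC (0.080 there) and Tap2 in BC (0.18 by the mean of per-cell CPM). Tap2 in BC was -1.86 in the largest cluster, and Tapbp in AC was -0.997 with free RNA subtracted. Tap2 in MG ran from 0.33 to 0.63 and was under the threshold in 6 of 10 alternatives. H2-D1 stayed below 0 throughout, its stratified log2 ratio going from -0.89 to -1.03 when thinned, -0.54 with free RNA subtracted, a setting without the rods, and -0.75 in the largest clusters. The number of genes lower in each of the 5 types went from 1 to 0 in the largest clusters and without cells with other-cell markers by the first list. In MG the H2-D1 ratio was then -0.49 and -0.27, and it was -0.45 with free RNA subtracted, all short of the threshold. That first list removed 1308 of 1720 control and 951 of 1184 knockout MG, because it held genes that MG express. With it the stratified ratio was -0.16 for H2-K1 and -0.11 for Tap1, and Tapbp in MG was -0.0195. A list also low in MG, chosen after seeing the data, removed 33 and 47 MG and left H2-D1 in MG at -0.59. Stratified Tapbp was -0.11 when thinned, 0.21 with free RNA subtracted and 0.21 in the largest clusters. The causes of the other shifts were not tested. No paired analysis was possible because each genotype had 1 library. No library could be left out for the same reason, and sparse genes such as Tap1 and H2-T23 are limited by their counts.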
